A study of Mus musculus with 4 samples.

Results

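Cell cycle and DNA replication genes were followed in whole colons of STAP-2-/- and wild-type (WT) mice with colitis. The set holds 44 genes picked by name, 20 that act in S phase or at the entry to it and 24 that act in mitosis or peak towards it, out of 20832 genes that the arrays name through the accession of a probe. Where a gene had several probes, the brightest was kept. All mice were C57BL/6J, 14 weeks old, and received DSS (dextran sulfate sodium), which damages the lining of the colon, at 1.75% in the drinking water. The labels give the time on DSS as 3 days in one place and 7 days in another, so it is not settled here. STAP-2-/- mice lack the adaptor protein STAP-2, by an allele that the labels do not describe, and WT mice are unmodified. Each sample was RNA pooled from 3 mice and put on 1 Agilent 1-colour array, giving 2 STAP-2-/- pools and 2 WT pools. No untreated colon was analysed here, so each comparison is among DSS-treated colons.

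A dividing cell first loads the MCM helicase onto its chromosomes, then fires those origins in S phase, when the E2F factors switch on genes for DNA synthesis. Mitotic genes come on later, under MuvB complexes with B-MYB and FOXM1, and drive spindle assembly, chromosome separation and cell division. In the colon the dividing cells are mainly those of the lower crypt, and immune and stromal cells add to them in inflamed tissue.

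Values are log2 of the processed signal relative to the 75th percentile of the array, so 0 is the signal of a spot at that percentile and a step of 1 is a doubling. They compare arrays for a gene, and not genes with each other. Both STAP-2-/- arrays gave Stap2 at -6.63 and -7.72, not well above background, against 2.92 and 2.98 on the WT arrays. The colon genes Cdx1, Cdx2, Car1, Slc26a3 and Vil1 were well above background on all 4 arrays. The 75th percentile of the signal was 2280 and 2348 on the STAP-2-/- arrays and 2134 and 2215 on the WT arrays, and 68.4% to 70.5% of spots per array were well above background. A single slide and scan held the 4 arrays, so neither differed between groups. Pools numbered 1 held positions 2 (STAP-2-/-) and 1 (WT), and pools numbered 2 held positions 4 and 3, so the pool number and the place on the slide cannot be told apart.

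The promoters of the S phase and mitotic members differed in their letters. RefSeq promoters (build GRCm38.p6, 250 bases before to 50 after the annotated start) were found for 16 of the 20 S phase members and 18 of the 24 mitotic members. Missing were Mcm4, Gins1, Gins2, Ccne2, Ccna2, Cdc25c, Aurkb, Foxm1, Kif20a and Tpx2. The cell cycle homology region (CHR), bound by the MuvB complexes, was searched as TTTGAA or TTCGAA, the CCAAT box, bound by NF-Y, as CCAAT, and the E2F site as TTTCCCGC, TTTGGCGC, TTTCGCGC or TTTGCCGC, each on both strands. CHR letters stood in 14 of 18 mitotic promoters (77.8%), in 4 of 16 S phase promoters (25.0%) and in 21.7% of all 27025 genes of the table. All 14 mitotic promoters with CHR letters also held a CCAAT box, as did all 4 S phase promoters with CHR letters. This pair was found in 9.65% of all genes and in 22 of 41 other mitotic genes (53.7%). E2F letters stood in 6 of 16 S phase promoters (37.5%), those of Mcm3, Mcm5, Mcm6, Mcm7, Cdc6 and Cdt1, and in 1 of 18 mitotic promoters, that of Cdk1, against 2.61% of all genes. Outside the set, genes of the same pathways had similar shares of CHR and E2F letters, with CHR in 31 of 41 other mitotic genes and E2F in 11 of 31 other replication genes. A match describes the letters and does not show that a factor binds there.

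**Figure D1:**
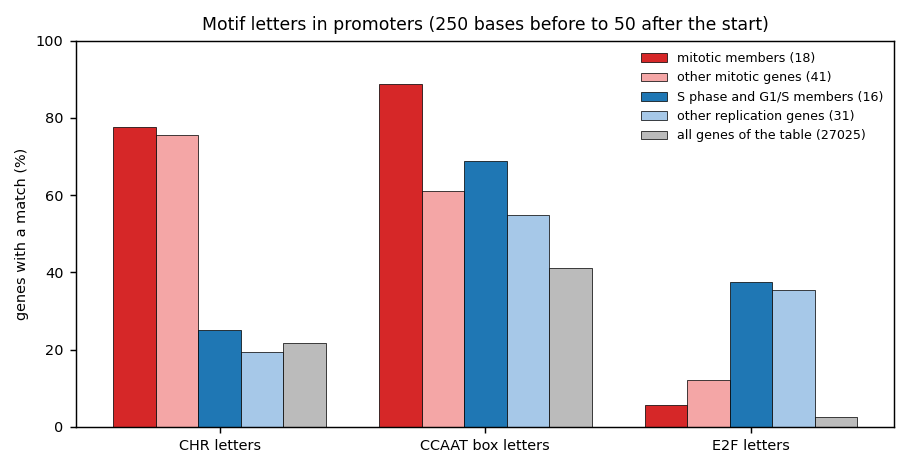
Share of genes (%) whose promoter holds the CHR, CCAAT box or E2F letters on either strand, for mitotic members, other mitotic genes, S phase members, other replication genes and all genes of the RefSeq table, with the number of genes in brackets. CHR letters reach 77.8% in mitotic members and 25.0% in S phase members, and E2F letters 37.5% in S phase members.

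Promoters of 5 members whose signal differed widely between pools show these letters, each as 150 bases read 5′ to 3′ on the strand of the gene. In Mcm5 (chr8:75109334-75109483, plus strand, positions -175 to -26 from the start) and Mcm7 (chr5:138171854-138172003, minus strand, positions -120 to 30) capitals mark the E2F letters, and in Mcm5 a match on each strand overlaps the other.
Mcm5: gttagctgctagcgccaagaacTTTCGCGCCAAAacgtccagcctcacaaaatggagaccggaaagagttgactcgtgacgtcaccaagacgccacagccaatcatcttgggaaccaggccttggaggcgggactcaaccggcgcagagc
Mcm7: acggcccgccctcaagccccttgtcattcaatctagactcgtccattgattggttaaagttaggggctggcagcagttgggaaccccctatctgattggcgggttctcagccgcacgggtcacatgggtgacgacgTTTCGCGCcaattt
In Ttk (chr9:83834569-83834718, plus strand), Bub1 (chr2:127831830-127831979, minus strand) and Ube2c (chr2:164769809-164769958, plus strand), shown over positions -120 to 30, capitals mark CHR letters (TTCAAA is TTTGAA read on the other strand) and CCAAT boxes (ATTGG on the other strand). Each holds a pair of CCAAT boxes upstream of its CHR letters.
Ttk: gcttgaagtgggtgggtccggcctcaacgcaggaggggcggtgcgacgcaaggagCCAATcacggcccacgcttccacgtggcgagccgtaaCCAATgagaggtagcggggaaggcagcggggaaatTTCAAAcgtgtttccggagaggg
Bub1: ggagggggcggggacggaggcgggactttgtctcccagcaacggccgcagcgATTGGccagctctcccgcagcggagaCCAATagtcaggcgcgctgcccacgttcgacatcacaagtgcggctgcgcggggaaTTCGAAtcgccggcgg
Ube2c: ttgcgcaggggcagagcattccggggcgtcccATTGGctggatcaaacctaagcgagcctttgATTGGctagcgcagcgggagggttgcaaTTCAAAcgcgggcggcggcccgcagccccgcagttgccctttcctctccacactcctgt

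On the arrays, 41 of the 44 members were well above background on all 4 arrays, and these were the members tested. Ccne2, which encodes cyclin E2, and Aurkb, the kinase of the chromosomal passenger complex, were not well above background on any array. Cenpf, a kinetochore protein, was well above background on both pool 2 arrays and on neither pool 1 array.

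The main pattern lay between the pools of a genotype. Nearly all cell cycle genes were lower in pool 1 than in pool 2, in STAP-2-/- and in WT colons alike, and mitotic genes were further apart than S phase genes. Of the 41 members, 40 were lower in pool 1 in both genotypes, the exception being Cdc45; 33.1% of all 15559 tested genes were lower in both, 46.1% in STAP-2-/- and 42.9% in WT colons. At least 1.5-fold lower in pool 1 were 31 members in STAP-2-/- colons, against 10.7% of all tested genes, and 28 in WT colons, against 5.44%. In both genotypes at once it was 27 of 41 members (3.5% of all tested genes), 22 of them mitotic and 5 S phase. At least 2-fold lower were 16 members in STAP-2-/- colons (3.97% of all tested genes), 21 in WT colons (1.94%) and 14 in both (0.996%), and of those 14 Rrm2 was the 1 S phase gene. Both pool 1 arrays lay below both pool 2 arrays for 40 of 41 members, against 26.4% of all tested genes. Each pool was 1 array, so no test was made between pools, and the values describe these arrays. In RNA of a whole tissue, fewer dividing cells and less of these transcripts per cell cannot be told apart.

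**Figure D2:**
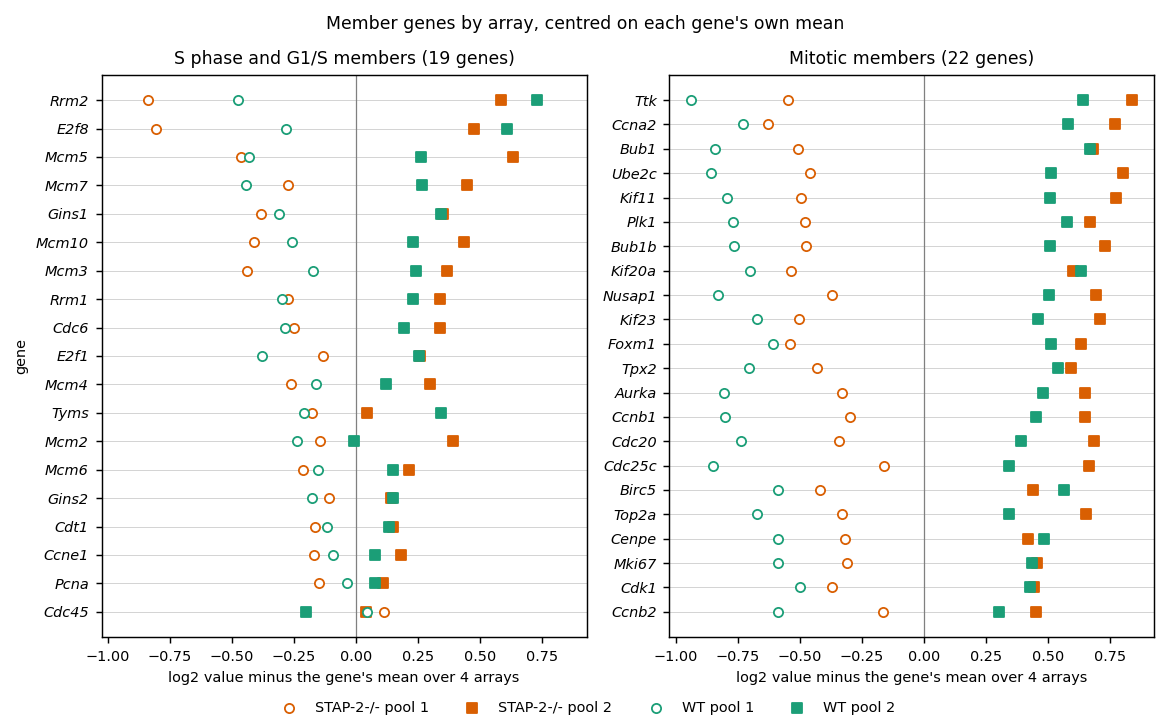
Log2 value of each tested member on each of the 4 arrays, minus the mean of that gene over the arrays (x axis), with genes down the page, S phase members on the left and mitotic members on the right. Open circles are pools 1, filled squares pools 2, orange STAP-2-/- and green WT. In every mitotic gene both circles lie left of both squares, and in the S phase panel this holds for every gene but Cdc45.

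The MCM genes encode the replicative helicase. Mcm5 stood at -0.35 in pool 1 and 0.75 in pool 2 of STAP-2-/- colons, and at -0.31 in pool 1 and 0.38 in pool 2 of WT colons. Both pool 1 arrays were low, by 2.14-fold in STAP-2-/- and 1.62-fold in WT colons. Mcm7 read 0.90 and 1.62 in STAP-2-/- pools 1 and 2, and 0.73 and 1.44 in WT pools 1 and 2, a gap of nearly the same size in each genotype (1.65-fold and 1.63-fold). Mcm2 read -1.34 and -0.81 in STAP-2-/- pools 1 and 2, and -1.44 and -1.21 in WT pools 1 and 2, a smaller gap that was wider in STAP-2-/- colons. Over Mcm2 to Mcm7 the pool difference had a median of -0.64 in STAP-2-/- and -0.36 in WT colons, and all 6 were lower in pool 1 of each genotype, Mcm3, Mcm4 and Mcm6 by -0.81, -0.56 and -0.42 in STAP-2-/- and by -0.41, -0.28 and -0.30 in WT colons. Mcm10, which helps to activate the helicase, differed by -0.85 in STAP-2-/- and -0.49 in WT colons.

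Helicase loading and activation genes spread widely. Cdc6 and Cdt1, which load the MCM ring, differed between pools by -0.59 and -0.31 in STAP-2-/- colons and by -0.48 and -0.25 in WT colons. Gins1 and Gins2 belong to the GINS complex of the active helicase, and they differed by -0.73 and -0.25 in STAP-2-/- and by -0.65 and -0.33 in WT colons. Cdc45, their partner in that helicase, had the smallest gap on average and ran the other way, at -4.67 and -4.74 in STAP-2-/- pools 1 and 2, and at -4.73 and -4.98 in WT pools 1 and 2. Its signal was low, though well above background on all 4 arrays, where the lowest such signal was -6.70 to -6.19. Pcna, the sliding clamp of the DNA polymerases, was nearly level, at 2.86 and 3.11 in STAP-2-/- pools 1 and 2, and at 2.97 and 3.08 in WT pools 1 and 2.

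Genes of nucleotide supply were all lower in pool 1, by different amounts. Rrm2, the small subunit of ribonucleotide reductase, whose protein is tied to S phase, had the widest gap of the S phase members, at -1.06 and 0.36 in STAP-2-/- pools 1 and 2, and at -0.69 and 0.51 in WT pools 1 and 2. Pool 1 was 2.68-fold lower in STAP-2-/- and 2.30-fold lower in WT colons, and both pool 1 arrays lay far below both pool 2 arrays. Its partner Rrm1, the large subunit, was lower by 1.53-fold in STAP-2-/- and 1.44-fold in WT colons. Tyms, the thymidylate synthase, read -3.07 and -2.85 in STAP-2-/- pools 1 and 2, and -3.10 and -2.55 in WT pools 1 and 2, with a wider gap in WT.

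Among the regulators of S phase entry, the repressor E2f8 stood out from the activator E2f1. E2f8 read -2.01 and -0.73 in STAP-2-/- pools 1 and 2, and -1.48 and -0.59 in WT pools 1 and 2, a pool 1 level 2.43-fold lower in STAP-2-/- and 1.85-fold lower in WT colons. E2f1 read -2.75 and -2.35 in STAP-2-/- pools 1 and 2, and -2.99 and -2.36 in WT pools 1 and 2. The WT gap of E2f1 was the wider, the reverse of E2f8. Ccne1, which encodes cyclin E1, was close to level at -1.03 and -0.68 in STAP-2-/- pools 1 and 2, and at -0.95 and -0.79 in WT pools 1 and 2.

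Mitotic cyclins and their kinase were lower in pool 1 throughout. Ccna2, cyclin A2, which acts in S phase and in G2, read 0.33 and 1.73 in STAP-2-/- pools 1 and 2, and 0.23 and 1.54 in WT pools 1 and 2, a level 2.64-fold and 2.48-fold lower in pool 1. Ccnb1, cyclin B1, read -0.65 and 0.30 in STAP-2-/- pools 1 and 2, and -1.15 and 0.10 in WT pools 1 and 2. The lowest of these arrays was WT pool 1, as for Ccna2. Ccnb2, cyclin B2, had the smallest gap of the mitotic members, at 1.14 and 1.76 in STAP-2-/- pools 1 and 2, and at 0.72 and 1.61 in WT pools 1 and 2. Cdk1, the kinase that these cyclins switch on, read -1.37 and -0.56 in STAP-2-/- pools 1 and 2, and -1.50 and -0.58 in WT pools 1 and 2. The phosphatase Cdc25c, which frees Cdk1 from inhibition, read -4.23 and -3.40 in STAP-2-/- pools 1 and 2, and -4.92 and -3.73 in WT pools 1 and 2. Foxm1, the transcription factor of many genes in this class, was 2.25-fold lower in pool 1 of STAP-2-/- colons, at -2.94 against -1.77 in pool 2, and 2.17-fold lower in pool 1 of WT colons, at -3.01 against -1.89.

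Mitotic kinases and the exit machinery showed the same order of arrays. Plk1, the polo-like kinase of spindle and cytokinesis, read 0.24 and 1.38 in STAP-2-/- pools 1 and 2, and -0.06 and 1.29 in WT pools 1 and 2. Aurka, the spindle pole kinase, differed by -0.98 in STAP-2-/- and -1.29 in WT colons. Cdc20, the activator of the anaphase-promoting complex, read 0.89 and 1.92 in STAP-2-/- pools 1 and 2, and 0.49 and 1.62 in WT pools 1 and 2. Ube2c, the ubiquitin-conjugating enzyme of that complex, whose promoter is shown above, read 0.48 and 1.74 in STAP-2-/- pools 1 and 2, and 0.08 and 1.45 in WT pools 1 and 2. Its pool 1 level was 2.39-fold lower in STAP-2-/- and 2.59-fold lower in WT colons, and WT pool 1 was the lowest array for each of these genes.

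A spindle checkpoint gene, Ttk, had the widest gap of all members on average over the genotypes. This kinase, also called MPS1, stood at -5.25 and -3.86 in STAP-2-/- pools 1 and 2, and -5.64 and -4.06 in WT pools 1 and 2, which is 2.62-fold and 2.99-fold lower in pool 1. Bub1, a kinase of the same checkpoint, read -3.41 and -2.22 in STAP-2-/- pools 1 and 2, and -3.74 and -2.23 in WT pools 1 and 2, which is 2.28-fold and 2.85-fold lower. Both pool 2 arrays were nearly equal for Bub1. Bub1b, which encodes the checkpoint protein BUBR1, differed by -1.21 in STAP-2-/- and -1.27 in WT colons. The motor genes Kif11, Kif20a and Kif23 differed by -1.27, -1.14 and -1.21 in STAP-2-/- colons and by -1.30, -1.33 and -1.13 in WT colons. The spindle proteins Nusap1 and Tpx2 differed by -1.06 and -1.02 in STAP-2-/- and by -1.34 and -1.25 in WT colons.

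The markers used to count dividing cells moved with the rest. Mki67, the proliferation antigen Ki-67, read 2.14 and 2.91 in STAP-2-/- pools 1 and 2, and 1.86 and 2.89 in WT pools 1 and 2, a level 1.70-fold and 2.03-fold lower in pool 1. Top2a, the topoisomerase that untangles sister chromatids, read -1.18 and -0.20 in STAP-2-/- pools 1 and 2, and -1.52 and -0.51 in WT pools 1 and 2. For both genes the pool 1 arrays lay below the pool 2 arrays with no overlap. Birc5, the passenger protein survivin, and Cenpe, a kinetochore motor, differed by -0.86 and -0.74 in STAP-2-/- and by -1.15 and -1.07 in WT colons. For Cenpf, pool 2 was at least 1.77-fold higher in STAP-2-/- and at least 1.67-fold higher in WT colons, bounds that set each pool 1 array at the lowest signal well above background there. Aurkb, with no level above background, read -7.17 and -6.72 in STAP-2-/- pools 1 and 2, and -7.69 and -6.82 in WT pools 1 and 2.

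Other probes of the same genes mostly gave the same order. Of 12 further probes of 9 members, 9 were well above background on all arrays, and 8 of these were lower in pool 1 in both genotypes. The second probe of Mki67 differed by -0.83 in STAP-2-/- and -1.05 in WT colons, close to the probe used. The exception was the second probe of Ccne1, which was higher in pool 1 by 0.40 in STAP-2-/- and 0.53 in WT colons, against -0.35 and -0.17 for the probe used. The probes of Ccne1 thus disagree, but the second was much dimmer, at -5.84 to -5.30 over the arrays against -1.03 to -0.68.

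Set side by side, mitotic members had the wider gap in each genotype. Their median pool difference was -1.05 in STAP-2-/- and -1.25 in WT colons, against -0.56 and -0.48 for S phase members and 0.04 and 0.04 for all tested genes. As folds, mitotic genes were 2.07-fold lower in pool 1 of STAP-2-/- colons and S phase genes 1.48-fold lower, and in WT colons 2.38-fold and 1.40-fold lower. No mitotic member reached the S phase median in either genotype. Of the 19 S phase members, 3 (Rrm2, E2f8 and Mcm5) lay below the mitotic median in STAP-2-/- colons and 0 in WT colons. The distance between the class medians was 0.49 in STAP-2-/- and 0.77 in WT colons. The signed pool difference was lower in WT than in STAP-2-/- colons for 19 of 22 mitotic members, 3 of 19 S phase members and 7700 of the 15559 tested genes. These are descriptions over genes that share the same 4 arrays, and the difference between the classes was not tested.

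**Figure D3:**
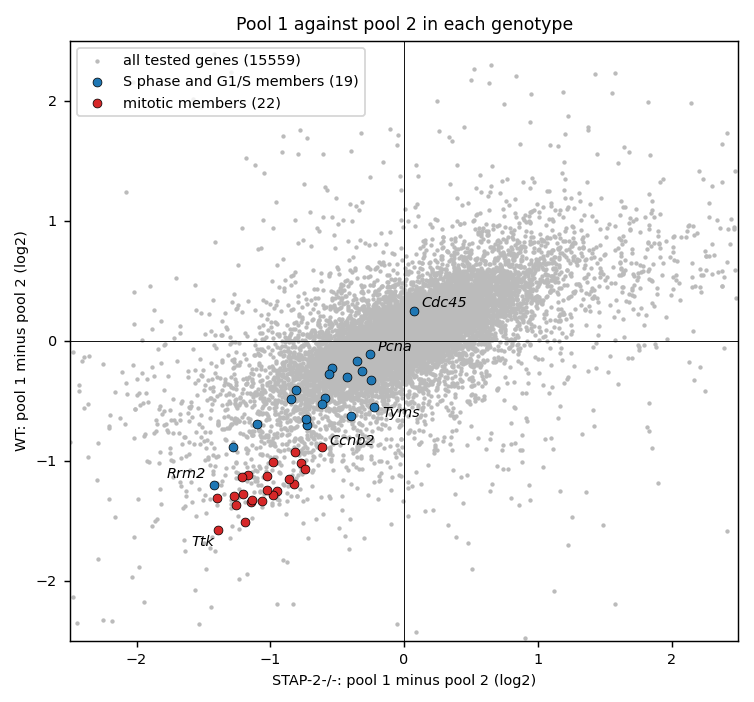
Pool 1 minus pool 2 (log2) in STAP-2-/- colons (x axis) against the same difference in WT colons (y axis) for S phase members (blue), mitotic members (red) and all tested genes (grey); genes beyond the axis limits are not drawn. Mitotic members sit at the lower left around -1.05 and -1.25, S phase members nearer to 0, and Cdc45 alone lies above 0 on both axes.

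The 2 genotypes share no array in these differences, and the members took a similar order in both. Over the 41 tested members Pearson's r between the STAP-2-/- and the WT pool difference was 0.863, against 0.596 over all 15559 tested genes, both given as descriptions. Within the classes it was 0.843 over 19 S phase and 0.758 over 22 mitotic members. Between mean signal and mean pool difference r was 0.038 over the 41, 0.445 over the mitotic and -0.17 over the S phase members.

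Within a class, genes with and without the searched letters had these gaps. The 6 S phase genes with E2F letters had medians of -0.66 in STAP-2-/- and -0.45 in WT colons, and the 10 without had -0.46 and -0.51. The 13 tested mitotic genes with CHR letters had medians of -1.15 and -1.27, and the 4 without (Birc5, Ccnb1, Cenpe and Nusap1) -0.90 and -1.20. Among S phase genes the 4 with CHR letters ranged from Cdc45, with no drop, to E2f8, with a wide one.

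Cell type markers moved between pools as well. T cell markers were lower in pool 1 for 7 of 9 genes in each genotype, as were enteric neuron and glia markers. Of all tested genes 46.1% were lower in STAP-2-/- and 42.9% in WT colons. T cell medians were -0.97 in STAP-2-/- and -0.44 in WT colons, and those of neuron and glia markers -0.24 and -0.09. The summed T cell signal, in multiples of the 75th percentile, was 3.34 and 5.09 in STAP-2-/- pools 1 and 2, and 2.81 and 3.13 in WT pools 1 and 2. Neutrophil markers were lower in pool 1 for 5 of 7 genes in each genotype, with S100a9 differing by -2.41 in STAP-2-/- and -5.10 in WT colons. Their sum was higher in pool 1, at 57.6 and 44.7 in STAP-2-/- pools 1 and 2, and at 58.9 and 53.1 in WT pools 1 and 2. Nearly all of that sum was the signal of 1 gene, Csf3r, which was higher in pool 1 by 0.39 in STAP-2-/- and 0.22 in WT colons. The sum therefore says little of the other neutrophil genes. Crypt stem cell markers ran against the cell cycle genes, with 9 of 9 higher in pool 1 of STAP-2-/- and 7 of 9 of WT colons, medians of 0.63 and 0.18, and sums of 15.4 and 9.08 in STAP-2-/- pools 1 and 2 and 9.69 and 8.41 in WT pools 1 and 2. General epithelial markers had medians of 0.06 in STAP-2-/- and 0.15 in WT colons, over genes that went both ways, from -1.24 (Cdx2) to 0.57 (Krt8) in STAP-2-/- and from -0.30 (Epcam) to 0.57 (Krt8) in WT colons. Of 9 surface colonocyte markers, 5 were at least 1.5-fold lower and 4 at least 1.5-fold higher in pool 1 of STAP-2-/- colons, against 1 and 1 in WT colons. The shares of all tested genes were 10.7% lower and 11% higher in STAP-2-/- and 5.44% each way in WT colons. Of 5 tested red cell precursor genes, 3 were higher in pool 1 of STAP-2-/- and 5 of WT colons, with medians of 0.37 and 0.60. Alas2 was higher in pool 1 by 1.22 in STAP-2-/- and 1.10 in WT colons, and Hbb-bt by 1.16 and 1.09. Epor and Tfrc differed by -0.064 and -0.31 in STAP-2-/- colons and by 0.13 and 0.077 in WT colons. In the T cell, neutrophil, crypt stem cell and epithelial lists every gene with a probe was well above background on at least 1 array. The part of these cells in the pool difference of the cell cycle genes was not tested.

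**Figure D4:**
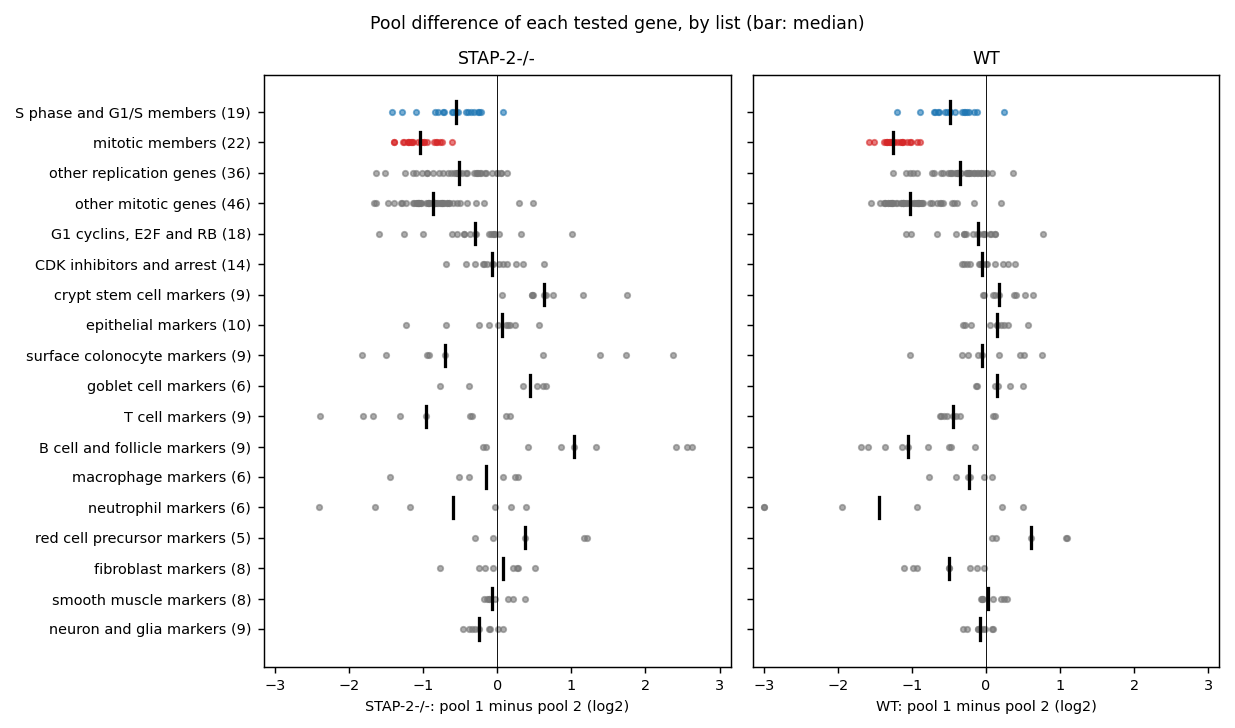
Pool 1 minus pool 2 (log2) of each tested gene in STAP-2-/- (left) and WT colons (right), by list, with the number of tested genes in brackets, a black bar at the median and values beyond 3 drawn at 3. The medians of both member classes and of the other mitotic genes lie left of 0 in both panels and those of crypt stem cell markers right of 0, with single genes such as Cdc45 on the other side.

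Further genes of the pathway, outside the 44, showed the same order. Of 46 other mitotic genes, 44 were lower in pool 1 of STAP-2-/- and 45 of WT colons, 38 of them by at least 1.5-fold in both, with medians of -0.87 and -1.03. Over all tested genes the shares were 46.1% in STAP-2-/- and 42.9% in WT colons, and 3.5% by at least 1.5-fold in both. Kif15 and Kif4, spindle and chromosome motors, differed by -1.64 and -1.67 in STAP-2-/- and by -1.38 and -1.21 in WT colons, and the centrosome kinase Nek2 by -1.48 and -1.43. Of 36 other replication genes tested, 33 were lower in pool 1 of STAP-2-/- and 32 of WT colons, 8 of them by at least 1.5-fold in both, with medians of -0.52 and -0.35. Dbf4, which activates the origin-firing kinase CDC7, differed by -1.63 in STAP-2-/- and -1.25 in WT colons, and the DNA polymerase alpha subunit Pola2 by -1.51 and -0.72.

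Upstream controls were nearer to level. Of 18 G1 cyclin, E2F and RB family genes, 15 were lower in pool 1 of STAP-2-/- and 13 of WT colons, with medians of -0.30 and -0.11, and 2 were at least 1.5-fold lower in both. Those 2 were E2f2, an activator (-1.60 in STAP-2-/- and -1.08 in WT colons), and E2f7, the partner of E2f8 (-1.26 and -1.01). Ccnd2, cyclin D2, ran the other way, with pool 1 higher by 1.01 in STAP-2-/- and 0.76 in WT colons. The shares over all tested genes were again 46.1% lower in STAP-2-/- and 42.9% in WT colons, and 3.5% by at least 1.5-fold in both. Of 14 tested CDK inhibitor and arrest genes, 8 were lower in pool 1 of each genotype, none by 1.5-fold in both, with medians of -0.06 and -0.05. The largest gaps of that list were those of Sesn1, a stress-induced sestrin (-0.69 and -0.09), Gadd45b (0.64 and 0.0044) and Btg1, an antiproliferative factor (0.35 and 0.23).

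Between genotypes, no tested member differed beyond the spread between pools, which takes in the pool gap that both genotypes share. None of the 41 tested members passed limma at an adjusted p of 0.05, with 0 higher and 0 lower in STAP-2-/- colons, against 0% of all 15559 tested genes. Stap2 itself did not pass, so passing none does not show equal levels. An unadjusted limma p under 0.05 was found for 0 of 41 members, against 2.09% of all tested genes, and the smallest, that of Mcm2, was 0.369. For 0 of 41 members did the 2 STAP-2-/- arrays lie apart from the 2 WT arrays, where 24.9% of all tested genes had no overlap. For 40 of 41 members both pool 1 arrays lay below both pool 2 arrays, an order that cannot hold together with such a separation. The count of 0 is therefore no separate result on genotype. The adjusted limma p was 0.999996 for each member.

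Proliferation markers show how wide the error was. Mki67 averaged 2.52 ± 0.54 in STAP-2-/- and 2.38 ± 0.72 in WT colons (SD, n = 2 each), a difference of 0.15 with a limma 95% interval of -1.19 to 1.48. Pcna, with little spread, averaged 2.98 ± 0.18 in STAP-2-/- and 3.03 ± 0.081 in WT colons (SD, n = 2 each), a difference of -0.04 with an interval of -0.49 to 0.41. The intervals leave room for more than a doubling of Mki67 and for less than 1.5-fold either way for Pcna. For Cdc45 the interval was -0.28 to 0.59, and for Ttk it was -1.85 to 2.44. Each mitotic member's interval included a level 2-fold higher in STAP-2-/- colons.

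S phase members showed little shift between the genotypes. Their median difference was 0.03, with 12 of 19 higher in STAP-2-/- colons, against a median of -0.01 and 48.3% higher over all tested genes. The smallest p among them were those of Mcm2 (-1.07 ± 0.38 in STAP-2-/- and -1.32 ± 0.16 in WT colons, SD, n = 2 each), Cdc45, E2f8, Tyms and Mcm7. Their log2 differences were 0.25, 0.15, -0.33, -0.13 and 0.18. Mcm5, Rrm2, E2f1 and Ccne1 differed by 0.17, -0.25, 0.13 and 0.02.

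Mitotic members were higher on average in STAP-2-/- colons in 22 of 22 cases, by 0.02 (Birc5) to 0.51 (Cdc25c), with a median of 0.23. These genes move together on each array, so the count is not a count of separate events. Cdc25c averaged -3.82 ± 0.58 in STAP-2-/- and -4.32 ± 0.84 in WT colons (SD, n = 2 each). The next smallest p were those of Ccnb2, Top2a, Cdc20 and Ccnb1, with differences of 0.29, 0.33, 0.34 and 0.35. Plk1, Foxm1, Cdk1, Ccna2, Bub1, Ube2c and Ttk differed by 0.19, 0.10, 0.07, 0.15, 0.17, 0.35 and 0.29. Array by array, the median of mitotic members was 0.30 higher in STAP-2-/- pool 1 than in WT pool 1 and 0.18 higher in STAP-2-/- pool 2 than in WT pool 2. Across the numbers it was 0.97 lower in STAP-2-/- pool 1 than in WT pool 2 (-0.97), and 1.43 higher in STAP-2-/- pool 2 than in WT pool 1. At equal number, 22 of 22 mitotic members were higher in STAP-2-/- pool 1 and 19 of 22 in pool 2. Over the 15559 tested genes these counts were 7708 and 7495. Across the numbers, 0 of 22 were higher in STAP-2-/- pool 1 and 22 of 22 in STAP-2-/- pool 2. With 1 array left out the median ran from -0.37 (without WT 1) to 0.85 (without WT 2), being -0.34 without STAP-2-/- 2 and 0.81 without STAP-2-/- 1. Its direction turned with the arrays used. With 1 array out, 1 genotype is left with a single pool number, so these medians carry the pool gap as well as the genotype. The S phase median ran from -0.21 (without STAP-2-/- 2) to 0.32 (without STAP-2-/- 1), and was -0.18 without WT 1 and 0.19 without WT 2.

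**Figure D5:**
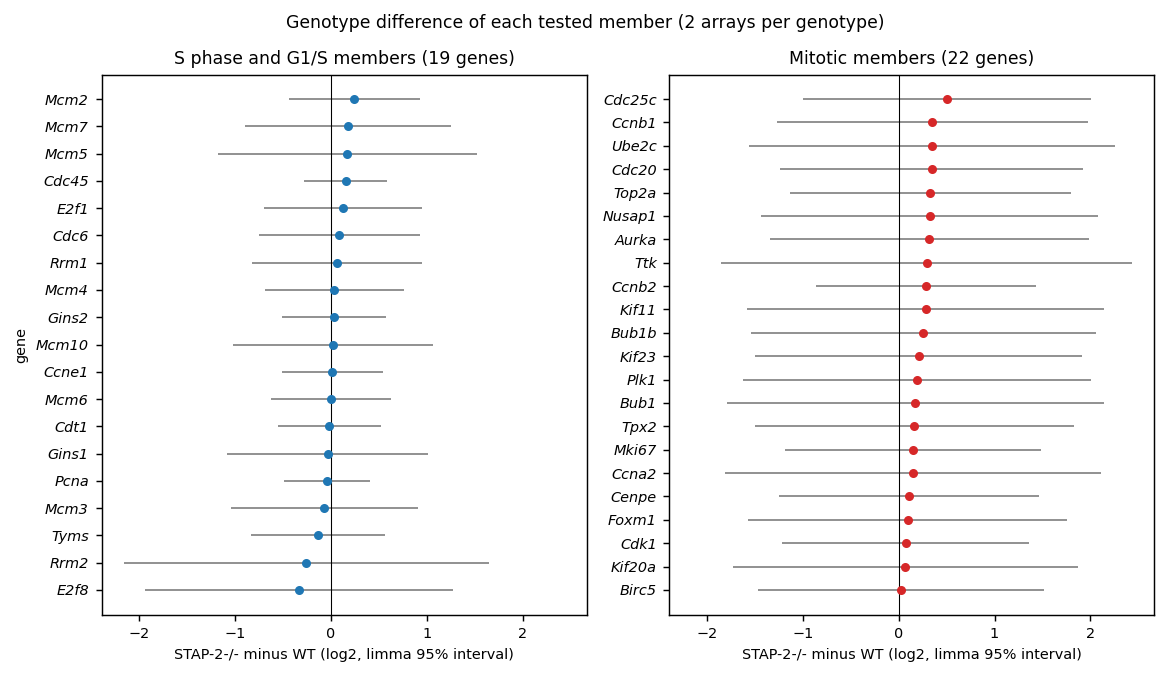
STAP-2-/- minus WT (log2) of each tested member with its limma 95% interval, S phase members on the left and mitotic members on the right. Every interval spans 0, and all mitotic points lie between 0.02 and 0.51.

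Of the other pathway genes none passed the limma test for genotype either. Among mitotic genes outside the set the smallest p were those of Hmmr, Cdc25b, Dlgap5 and Cdkn3, with differences of 0.32, 0.31, 0.57 and 0.39, and among replication genes those of Chek1, Rfc3, Gins4 and Tipin, with 0.20, 0.11, 0.11 and -0.10. Cdkn1a, the CDK inhibitor p21, read 2.34 and 2.21 in the STAP-2-/- arrays, above 1.97 and 1.58 in the WT arrays, a difference of 0.50 (SE 0.19) that did not pass. Btg2, Gadd45a and Ccng1 of the same list differed by 0.22, 0.20 and -0.15. In the G1 list Cdk6, a cyclin D kinase, differed by 0.41, E2f4 by 0.24, Mycn by -0.29 and E2f2 by -0.71. The genotypes had no overlap for 5 of 18 G1 genes, Cdk6 and E2f4 among them. In the CDK inhibitor and arrest list this held for 4 of 14 genes, Cdkn1a among them, against 24.9% of all tested genes. T cell markers and crypt stem cell markers were each higher in STAP-2-/- colons for 9 of 9 tested genes, with medians of 0.76 and 0.48, and general epithelial markers for 4 of 10, with a median of -0.03. Fibroblast, enteric neuron and glia, and smooth muscle markers were higher there for 0 of 8, 0 of 9 and 0 of 8 genes, with medians of -0.37, -0.35 and -0.11, and B cell markers for 1 of 9, with a median of -0.70. The part of these cells in the genotype values of the cell cycle genes was not tested.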

How the data were processed

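The deposited scanner output gives, per the file headers, a processed intensity for every spot (local background removed and spatial trend corrected on that array), the median spot and background intensities and quality flags. The submitters' processing notes name Agilent Feature Extraction 10.7.1.1. The authors' deposited value table is a ratio, the processed signal over 1 constant per array, within 1% for at least 99.97% of the compared probes; its scale is linear, its column medians are 0.091 and 0.084 (STAP-2-/-) and 0.090 and 0.087 (WT), and it served as an alternative.

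Values are log2 processed signal minus the 75th percentile over non-control spots. Control spots were left out, outlier-flagged spots set missing and spots of a probe averaged. Of 39429 probes, 27427 were named through RefSeq accessions (table of GRCm38.p6), giving 20832 genes. Testing required signal well above background on both arrays of STAP-2-/- or of WT colons (15559 genes). Genotypes were compared with limma 3.58.1 (lmFit, eBayes, Benjamini-Hochberg, threshold 0.05) in R 4.3.3, with no covariate. The p-values measure the spread between these pools, which the titles call biological replicates. On simulated arrays with the spread of these data, the fit called 5.52% of genes changed 2-fold, 79.4% at 4-fold and 97.1% at 16-fold. Most 2-fold changes would thus be missed. Pools were compared by value, at least 1.5-fold counting as apart. No spot was saturated, and the 2 arrays per genotype limit the precision. Tables and drawings used Python 3.11.15 with pandas 2.3.3, numpy 2.4.6 and, for plots, matplotlib 3.10.9.

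Members and lists were chosen with earlier results of these data known. Values on every array are given for 12 textbook markers, the 5 members per class with the smallest genotype p, the 4 with the largest and the 1 with the smallest mean pool difference, and any member past the threshold. From each pathway list up to 4 genes by p and 3 by pool difference are named, mostly by their differences alone, and 1 gene so named is not reported here. Alternatives were other scalings, normexp background correction (offset 50, on the median signals), the value table, other filters, flagged spots kept, the mean of probes, an intensity trend, the replicate number as a block and leaving out each array.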

Additional observations from a re-analysis of the deposited data

Results flagged for a closer look

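Pool 1 and pool 2 differed in opposite directions in the genotypes for the medians of 3 marker lists and for 3 of the pathway genes named by rule, each from 1 array a pool and not tested. Other genes of the lists did so too, among them Cep55, a cytokinesis protein, at 0.48 in STAP-2-/- and -0.16 in WT colons. B cell and follicle markers had a median pool 1 minus pool 2 difference of 1.04 in STAP-2-/- and -1.05 in WT colons, so they ran with the cell cycle genes in WT and against them in STAP-2-/- colons. Fibroblast markers had medians of 0.079 in STAP-2-/- and -0.50 in WT colons, and smooth muscle markers -0.071 and 0.029. Rfc3, a subunit of the clamp loader, differed by -0.068 in STAP-2-/- and 0.018 in WT colons, Cdk6 by -0.30 and 0.067, and E2f4 by -0.042 and 0.048. The values of Rfc3, E2f4 and the smooth muscle list lie close to level, where a sign turns easily. Opposite signs were common, as 46.1% of all tested genes were lower in pool 1 of STAP-2-/- and 42.9% of WT colons, but 33.1% in both.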

How the results depend on the processing

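The count of members past the limma threshold was 0 under each alternative run, and the smallest adjusted p of a member over them was 0.699, with the replicate number as a block. The pool numbers are not known to pair the samples: over 15549 genes, arrays of equal number had deviations with r = 0.596, from 2 pairs only. With the replicate block 0 members passed, and 4 had an unadjusted p under 0.05, against 0 without it.

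Pool medians kept their sign under all scalings. For S phase members the STAP-2-/- median was -0.63 with median scaling and -0.48 with normexp, and the WT median was -0.54 with median scaling, -0.37 with normexp and -0.41 with the mean of the probes. Of the named members' genotype differences, 250 of 253 kept their direction under alternatives other than leaving out arrays. Other filters, the intensity trend and the replicate block cannot change a difference, and the mean of probes only that of genes with several probes. The count therefore overstates how far the directions were tried. With normexp Cdc45 was -0.00374 and Ccne1 -0.017, and with the mean of the probes Cdk1 was -0.14. The 3 probes of Cdk1 differed by 0.073 (the probe used), 0.43 and -0.93. The probe at -0.93 was well above background on 2 arrays and the one at 0.43 on 3. For Cdc45 and Ccne1 the cause was not tested.

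With 1 array left out the genotype median ran from -0.21 to 0.32 for S phase and from -0.37 to 0.85 for mitotic members. Single genes ran from -0.17 to 0.087 (Pcna), -0.021 to 0.51 (Mcm2), -0.38 to 0.72 (Mcm5), -0.18 to 0.54 (Mcm7), 0.030 to 0.28 (Cdc45), -0.97 to 0.46 (Rrm2), -0.41 to 0.14 (Tyms), -0.16 to 0.19 (Ccne1), -0.19 to 0.44 (E2f1), -0.97 to 0.31 (E2f8), -0.55 to 0.85 (Ccna2), -0.28 to 0.98 (Ccnb1), -0.16 to 0.73 (Ccnb2), -0.39 to 0.54 (Cdk1), -0.22 to 0.91 (Cdc20), -0.090 to 1.10 (Cdc25c), -0.48 to 0.87 (Plk1), -0.49 to 0.68 (Foxm1), -0.34 to 1.03 (Ube2c), -0.36 to 0.66 (Mki67), -0.18 to 0.84 (Top2a), -0.58 to 0.93 (Bub1) and -0.50 to 1.08 (Ttk). Leaving out an array gives no pool comparison. It also leaves 1 genotype with a single pool number, so these ranges carry the pool gap. Members near background (Ccne2, Aurkb and Cenpf) are limited by signal. Cdc45 and Ttk were dim as well, though well above background on all 4 arrays.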
